A study of Rattus norvegicus with 9 samples.

Results

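The proteasome subunit genes were followed in RNA from rat sciatic nerve tissue that had regenerated inside implanted conduits. Members were the genes that the deposited annotation places in the KEGG proteasome pathway and whose symbol begins with Psm, with Pomp and with the 5 immunoproteasome genes Psmb8, Psmb9, Psmb10, Psme1 and Psme2. This gave 40 of the 21486 genes in the table. They fall into 15 core genes (the Psma and Psmb families), 17 cap genes (Psmc and Psmd), the 5 immunoproteasome genes and 3 others (Pomp, Psme4 and Psmf1). Of the 40 members, 39 passed the filter on low counts, as did 15659 genes in all. The member that did not pass was Psma8, an alpha subunit typical of testis, with 0 to 4 counts per library.

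A 2 cm gap in the sciatic nerve of rats was bridged with a conduit, and the tissue inside it was taken on day 14. Hollow was an empty tube. AFMC was a conduit whose lumen held aligned fibres and lengthwise microchannels, and it carried no added molecule. AFMC-AA-SP was the AFMC conduit with spermidine (SP), a polyamine, adsorbed on the fibre surface and L-ascorbic acid (AA), vitamin C, loaded inside the fibres, so that it differs from Hollow by the filling and by both molecules together. There were 3 libraries per group, with 18314489 to 26074134 counts each, and the labels name no strain, sex or age and do not say whether each library came from its own animal. P-values therefore measure the spread between these libraries, which may be technical.

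The proteasome degrades proteins that carry ubiquitin chains. Its core particle is a barrel of alpha rings around beta rings, and the beta subunits Psmb5, Psmb6 and Psmb7 carry the chymotrypsin-like, caspase-like and trypsin-like activities. The cap, or regulatory particle, recognises ubiquitin, unfolds the substrate with its Psmc ATPase ring and threads it into the core. Interferon gamma induces Psmb8, Psmb9 and Psmb10, which are built into newly assembled cores in place of Psmb5, Psmb6 and Psmb7, and the activator subunits Psme1 and Psme2. The resulting immunoproteasome, abundant in leukocytes, yields peptides suited to MHC class I. After nerve injury, protein breakdown by the ubiquitin and proteasome system takes part in Wallerian degeneration, and leukocytes enter the nerve.

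The promoters of the immunoproteasome genes are shown because 3 of the 5 hold the letters of an interferon response element, which few promoters in the RefSeq table hold. RefSeq windows of the GRCr8 build, from 250 bases before to 50 after the start site, were found for 36 of the 40 members. Psma7, Psmd6, Psmd12 and Psmd14 had none. The 14 core promoters thus include Psma8, which did not pass the filter, and are not the 14 tested core genes. The interferon-stimulated response element was searched as GAAA, any 2 letters and GAAA, and the gamma-activated site as TTCNNNGAA, both on both strands. Capitals mark them in the sequences of Psmb8 (chr20:4656982-4657281, minus strand), Psmb10 (chr19:50743243-50743542, minus strand) and Psme2 (chr15:33052702-33053001, minus strand). Psmb9 (chr20:4668750-4669049, plus strand) held neither and is printed for contrast. Psme1 held neither in full and is not printed. Its window ends in letters that match the start of the interferon-stimulated element on the opposite strand. Whether the match continues past the window was not checked. Psmb5 (chr15:32047330-32047629, minus strand), the constitutive partner of Psmb8, is printed with the antioxidant response element in capitals, searched as TGACNNNGC or TGAGNNNGC.
Psmb8: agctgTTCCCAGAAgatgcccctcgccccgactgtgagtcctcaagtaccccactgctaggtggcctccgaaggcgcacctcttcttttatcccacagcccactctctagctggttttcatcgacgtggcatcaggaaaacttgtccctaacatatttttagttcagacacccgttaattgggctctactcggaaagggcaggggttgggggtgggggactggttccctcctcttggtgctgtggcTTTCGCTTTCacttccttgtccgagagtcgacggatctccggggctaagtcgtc
Psmb10: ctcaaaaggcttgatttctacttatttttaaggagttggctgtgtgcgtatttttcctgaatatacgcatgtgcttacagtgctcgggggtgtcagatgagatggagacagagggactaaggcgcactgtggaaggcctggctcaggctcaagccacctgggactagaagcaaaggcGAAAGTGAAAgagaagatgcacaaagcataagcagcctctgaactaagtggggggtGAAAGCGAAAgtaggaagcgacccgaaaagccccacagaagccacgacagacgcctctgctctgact
Psme2: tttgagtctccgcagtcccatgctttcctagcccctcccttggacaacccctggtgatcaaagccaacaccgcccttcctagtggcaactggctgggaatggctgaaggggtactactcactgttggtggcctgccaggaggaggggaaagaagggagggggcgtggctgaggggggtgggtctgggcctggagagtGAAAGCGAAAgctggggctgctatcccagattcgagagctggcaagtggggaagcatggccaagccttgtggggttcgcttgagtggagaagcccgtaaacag
Psmb9: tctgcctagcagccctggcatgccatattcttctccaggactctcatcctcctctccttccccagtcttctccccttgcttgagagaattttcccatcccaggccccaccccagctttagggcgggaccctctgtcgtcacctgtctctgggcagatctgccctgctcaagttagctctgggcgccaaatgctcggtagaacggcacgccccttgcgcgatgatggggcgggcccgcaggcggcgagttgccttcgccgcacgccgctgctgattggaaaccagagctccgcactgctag
Psmb5: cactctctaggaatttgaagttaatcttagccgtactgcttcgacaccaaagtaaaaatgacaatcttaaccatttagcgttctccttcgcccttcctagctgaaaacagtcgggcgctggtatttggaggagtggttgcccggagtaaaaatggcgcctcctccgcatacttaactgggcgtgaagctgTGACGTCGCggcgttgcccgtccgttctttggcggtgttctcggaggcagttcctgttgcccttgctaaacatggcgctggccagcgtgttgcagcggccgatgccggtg
In Psmb8 the gamma-activated letters begin 245 bases before the start site and the interferon-stimulated letters, read on the opposite strand, 4 bases before it. Psmb10 held the interferon-stimulated letters at 73 and at 17 bases before the start, and Psme2 at 53 bases before it.

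The interferon-stimulated letters were present in 3 of 5 immunoproteasome promoters (60%), in 2 of 14 core promoters (Psma4 and Psmb3), in 1 of 14 cap promoters (Psmd7) and in 3.92% of the 33469 promoters in the table. The gamma-activated letters were in 1 immunoproteasome promoter (Psmb8), 3 cap promoters (Psmc6, Psmd3 and Psmd7), no core promoter and 8.87% of all promoters. The antioxidant response letters, read by the stress factors Nfe2l1 and Nfe2l2 at proteasome genes, were in 7 of 14 core promoters (50%), 5 of 14 cap promoters (35.7%), 0 of 5 immunoproteasome promoters and 27.1% of all. In Psmb5 they began 60 bases before the start. The letters CCAAT, bound by the factor NF-Y, were in 9 of 14 core promoters (64.3%), 5 of 14 cap promoters, 2 of 5 immunoproteasome promoters and 37.5% of all. These matches describe the letters in the windows, and binding was not measured.

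Core and cap transcripts were present at similar levels in every library. Per length, on the deposited FPKM scale, the mean level over 9 libraries ran from 20.0 (Psma2) to 104 (Psmb4) among the 14 tested core genes and from 14.4 (Psmc6) to 88.8 (Psmc3) among the 17 cap genes. Psmb4 is a structural beta subunit and Psmc3 an ATPase of the cap ring. The deposited span of Psmc3 is 2.14 times that of RefSeq, so its level may include reads of neighbouring genes. The immunoproteasome genes ranged from 13.9 (Psmb10) to 84.2 FPKM (Psme1). The order depends on the length that the table gives each gene, as implied by its counts and FPKM: 3517 bases for Psma2 and 4290 for Psmc6 against 1138 for Psmb4.

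Levels differed little between libraries in the core and cap and more in the immunoproteasome genes. The coefficient of variation over 9 libraries, on the CPM scale (counts relative to the library total, adjusted by TMM), was 4.66 to 11.2% in the core and 5.08 to 9.95% in the cap, below the median of 14.2% over all tested genes. It was 17.2% for Psme1, 20.5% for Psme2, 25.5% for Psmb10, 38.7% for Psmb8 and 40.0% for Psmb9. The highest library exceeded the lowest by 1.14 to 1.38 times in core genes and by 1.16 to 1.36 times in cap genes. For Psmb8 this ratio was 4.06, for Psmb9 3.08 and for Psmb10 2.06.

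The libraries at the extremes also differed between the classes. AFMC replicate 1 was the highest of 9 libraries for 10 of 14 core genes and 14 of 17 cap genes. AFMC-AA-SP replicate 1 was the lowest for 13 of 17 cap genes, and Hollow replicate 1 for 7 of 14 core genes. All 5 immunoproteasome genes were highest in AFMC replicate 3. Hollow replicate 1 was their lowest library, except for Psmb8, which was lowest in AFMC replicate 2.

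**Figure D1:**
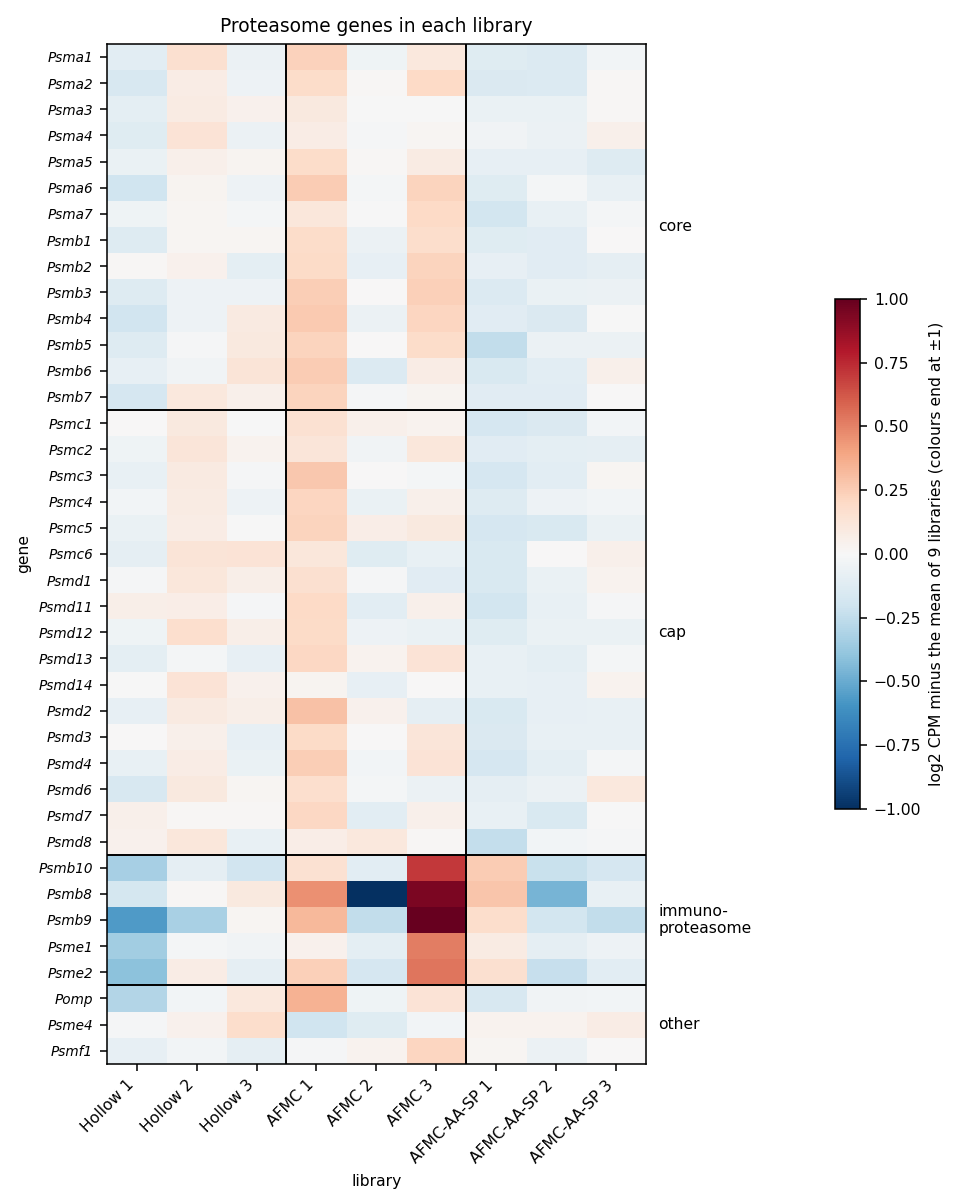
Log2 CPM of each tested proteasome gene (vertical axis) in each of the 9 libraries (horizontal axis), as the difference from the gene's own mean, with colours ending at ±1. Core and cap rows are pale across the map, as are the rows of Psme4 and Psmf1. Most core and cap rows are highest in AFMC replicate 1, and the 5 immunoproteasome rows are highest in AFMC replicate 3.

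AFMC replicate 3 stood apart across the whole table, at -72.3 on the first principal component (32.9% of the variance) against -9.93 to 23.5 for the other 8 libraries. The labelled nerve tissue was checked by Schwann cell markers: all 9 were present in every library, and their summed level was 1225 to 1946 CPM in AFMC, 1897 to 2202 CPM in AFMC-AA-SP and 1941 to 2902 CPM in Hollow. Skeletal muscle markers (6 measured) summed to 120 to 2034 CPM and did not follow the conduit groups. The libraries also differed by gene length. Across genes, Spearman's rho of length with the log2 CPM of a library, taken relative to the average library, was -0.307 in AFMC replicate 1, -0.191 in AFMC replicate 3 and -0.0344 in AFMC replicate 2, and above 0 in the other 6. The median length was 1378 bases for core, 2256 for cap, 1417 for immunoproteasome and 2956 for all tested genes.

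AFMC against Hollow addresses the effect of the internal structure. In it, all 14 tested core genes and all 5 immunoproteasome genes had a mean log2 fold change above 0, as did 52.1% of all tested genes, but no member passed the test. With an offset for gene length, 10 of 14 core genes were above 0 (Psma3, Psma4, Psmb6 and Psmb7 were below it), and there were 12 without AFMC replicate 1 or without Hollow replicate 1. The median log2 fold change was 0.13 for the core, 0.04 for the cap and 0.36 for the immunoproteasome genes, against 0.01 for all tested genes. With the length offset these medians were 0.04, 0.01 and 0.27, against 0.02 for all tested genes. By edgeR's quasi-likelihood test with Benjamini-Hochberg adjustment over all tested genes, 0 members and 0% of all genes were called at 0.05 in either direction, and the smallest adjusted p of a member was 0.154 (Psmb3). DESeq2 also called 0 members, with 2.64% of all genes called higher and 3.92% lower. At an unadjusted edgeR p under 0.05, 5 of 39 members were higher in AFMC (Psma6, Psmb3, Psmd13, Psmb9 and Psmb10), against 8.4% of all genes, and 1 was lower (Psme4), against 11.1%.

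The immunoproteasome subunits had the largest mean differences among the members, and each was highest in AFMC replicate 3. Psmb8, which takes the place of Psmb5, measured 67.4, 76.7 and 81.5 CPM in the Hollow libraries, 104, 36.1 and 147 CPM in AFMC and 92.3, 55.1 and 72.4 CPM in AFMC-AA-SP. AFMC thus held both the highest and the lowest libraries, and the groups overlapped. The lowest, AFMC replicate 2, rested on 667 counts. The log2 fold change of Psmb8 for AFMC against Hollow was 0.35 ± 0.41 (SE; edgeR adjusted p = 0.675), and without AFMC replicate 3 it was -0.09, the only immunoproteasome gene then below 0.

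Psmb9, which takes the place of Psmb6, measured 20.4, 24.1 and 30.6 CPM in the Hollow libraries, 37.9, 25.4 and 62.8 CPM in AFMC and 34.1, 26.5 and 25.4 CPM in AFMC-AA-SP. AFMC replicates 1 and 3 were above every Hollow library, and AFMC replicate 2 lay within their range. Its log2 fold change was 0.75 ± 0.30 (edgeR adjusted p = 0.215), and 0.34 without AFMC replicate 3. Psmb8 and Psmb9 lie close together on chromosome 20 in the deposited table, at 4652159 to 4655283 and 4666046 to 4672512 (gene spans; the build is not given in the sources used here).

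Psmb10, which takes the place of Psmb7, measured 32.9, 39.0 and 36.2 CPM in the Hollow libraries, 45.9, 38.4 and 67.6 CPM in AFMC and 49.5, 35.5 and 36.9 CPM in AFMC-AA-SP. The groups overlapped, since AFMC replicate 2 was below Hollow replicate 2, and the log2 fold change was 0.49 ± 0.21 (edgeR adjusted p = 0.236). The deposited span of Psmb10 is 2.57 times that of RefSeq and carries the annotation of the neighbouring protease gene Ctrl, so reads of the 2 genes cannot be told apart.

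The activator subunits Psme1 and Psme2, which form a ring on the core, overlapped between the groups as well. Psme1 measured 84.2, 106 and 104 CPM in the Hollow libraries, 110, 100 and 153 CPM in AFMC and 113, 101 and 103 CPM in AFMC-AA-SP. Psme2 measured 51.4, 71.6 and 64.0 CPM in the Hollow libraries, 80.2, 60.7 and 98.7 CPM in AFMC and 76.1, 58.0 and 63.2 CPM in AFMC-AA-SP. For both genes AFMC replicate 2 lay inside the Hollow range. The log2 fold changes were 0.30 ± 0.16 for Psme1 (edgeR adjusted p = 0.320) and 0.36 ± 0.19 for Psme2 (edgeR adjusted p = 0.325). A near copy of Psme1, Psme1-ps1, was counted at group means of 2.25 CPM in the Hollow libraries and 3.61 CPM in AFMC, and reads may be split between the copies.

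**Figure D2:**
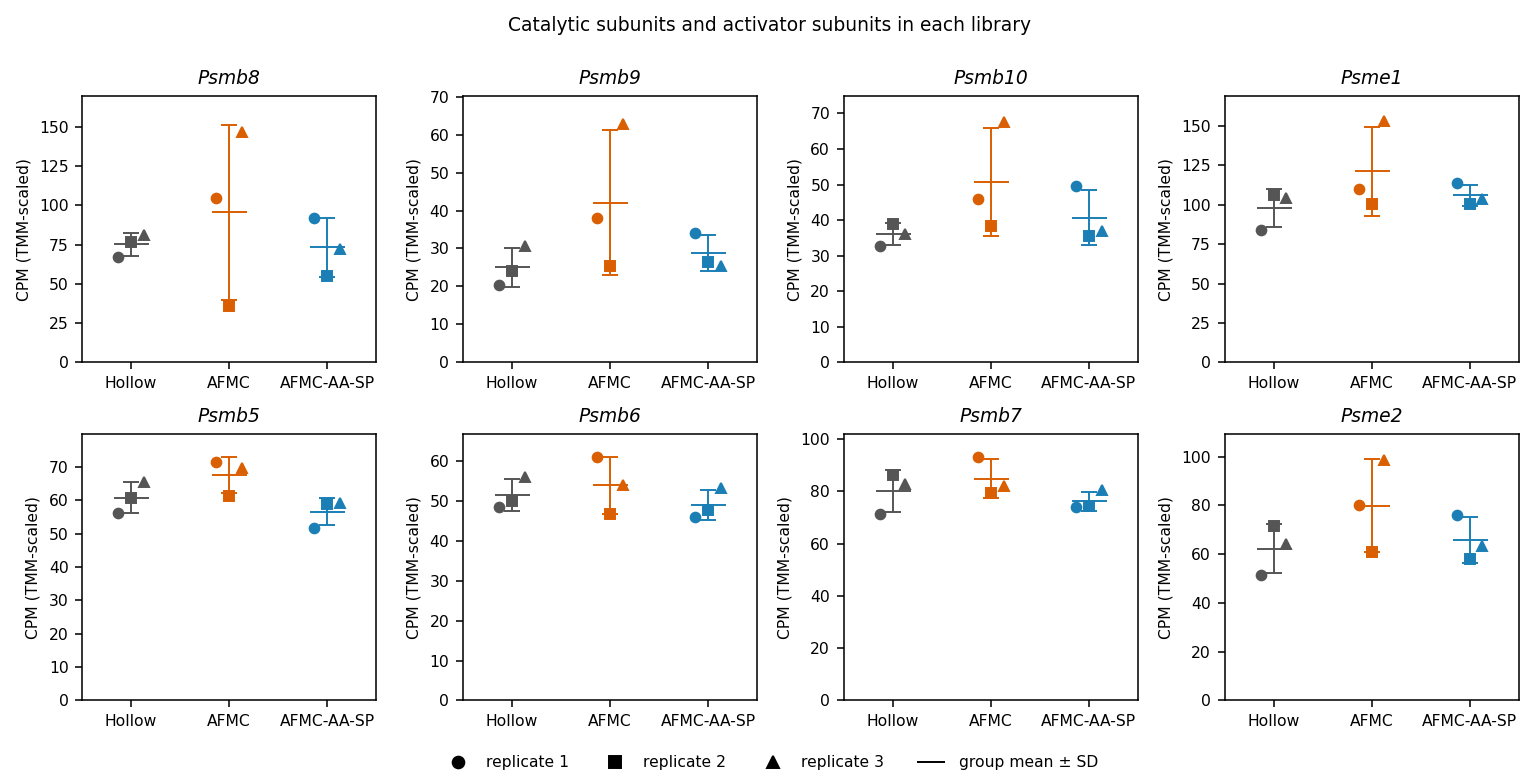
TMM-scaled CPM (vertical axis, from 0) of the 3 constitutive catalytic subunits, their 3 immunoproteasome counterparts and the activator subunits Psme1 and Psme2 in the 3 conduit groups (horizontal axis), with points for the libraries, marker shape for the replicate number, and bars for the group mean ± SD. AFMC replicate 3 is the highest library in the 5 immunoproteasome panels, and AFMC replicate 2 is the lowest library for Psmb8.

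Immune cell markers were measured beside these genes. The summed level of 7 leukocyte markers was 1927 to 2561 CPM in the Hollow libraries, 2474 to 3029 CPM in AFMC and 2195 to 2708 CPM in AFMC-AA-SP. All 7 had a log2 fold change above 0 for AFMC against Hollow, against 52.1% of all genes. All 7 were also above 0 for AFMC-AA-SP against Hollow, against 50.2%. For AFMC against Hollow, edgeR called 0 of them and DESeq2 called 2 higher, against 2.64% of all genes. For T and NK cells, the 8 markers in the table summed to 39.7 to 66.7 CPM in Hollow, to 75.4, 80.6 and 175 CPM in AFMC and to 69.2 to 73.2 CPM in AFMC-AA-SP. Neutrophil markers (7) summed to 286 to 436 CPM in the Hollow libraries, 734 to 1498 CPM in AFMC and 480 to 658 CPM in AFMC-AA-SP. Macrophage markers (9) summed to 2243 to 2690 CPM in Hollow, to 2531 to 3204 CPM in AFMC and to 2455 to 2698 CPM in AFMC-AA-SP. For AFMC against Hollow, DESeq2 called 4 of the 8 T and NK cell markers and 2 of the 9 macrophage markers higher. It called 0 of these lower, and edgeR called 0. Calls were not counted for the neutrophil markers. The T and NK cell, neutrophil and macrophage sums were highest in AFMC replicate 3, and the leukocyte sum in AFMC replicate 1. No marker on these lists was at 0 in all libraries, and their part in the immunoproteasome values was not tested. In bulk tissue, fewer cells of a type and less RNA per cell cannot be told apart.

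Genes that act with the immunoproteasome mostly had log2 fold changes above 0 as well. Of 8 tested genes that supply peptides to MHC class I, 7 had a log2 fold change above 0 (median 0.35), against 52.1% of all genes, 0 passed in edgeR, and 2 were called higher by DESeq2, against 2.64% of all genes. These were Tap1 and Tap2, which form the transporter that carries peptides into the endoplasmic reticulum. Tap2 measured 48.5, 48.4 and 60.9 CPM in the Hollow libraries and 62.5, 77.4 and 89.3 CPM in AFMC, with no overlap, at a log2 fold change of 0.54 ± 0.15 (edgeR adjusted p = 0.126; DESeq2 adjusted p = 0.0197). Of 11 tested genes of the interferon gamma axis, 11 were above 0 (median 0.41), 0 passed in edgeR and 1 was called higher by DESeq2. Without AFMC replicate 3, 6 of these 11 were above 0 (median 0.18), and 5 of the 8 MHC class I genes (median 0.10). The gene called by DESeq2 was Ifngr1, a chain of the interferon gamma receptor, at 164 to 173 CPM in the Hollow libraries and 206 to 256 CPM in AFMC (DESeq2 adjusted p = 0.0107; edgeR adjusted p = 0.117).

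Among core genes the differences were small. Psmb3, a structural beta subunit, measured 65.7, 69.4 and 69.0 CPM in the Hollow libraries and 84.8, 72.0 and 84.7 CPM in AFMC. Every AFMC library was above every Hollow library, AFMC replicate 2 by the least, and the log2 fold change was 0.24 ± 0.08 (edgeR adjusted p = 0.154; DESeq2 adjusted p = 0.0756). The alpha subunit Psma6 measured 74.4, 87.2 and 82.5 CPM in the Hollow libraries and 102, 84.3 and 100 CPM in AFMC, and the groups overlapped at a log2 fold change of 0.23 ± 0.09 (edgeR adjusted p = 0.221; 0.14 with the length offset). The alpha ring had a median of 0.10 over 7 genes and the beta ring 0.13 over 7.

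Of the constitutive catalytic subunits, Psmb5 was above the core median of 0.13, and Psmb6 and Psmb7 were below it. Psmb5 measured 56.2, 60.7 and 65.4 CPM in the Hollow libraries and 71.6, 61.4 and 69.5 CPM in AFMC, at a log2 fold change of 0.15 ± 0.09. Psmb6 measured 48.5, 50.2 and 56.2 CPM in the Hollow libraries and 61.1, 46.8 and 54.2 CPM in AFMC, at 0.07 ± 0.11. Psmb7 measured 71.2, 86.3 and 83.0 CPM in the Hollow libraries and 93.3, 79.5 and 81.9 CPM in AFMC, at 0.08 ± 0.10. All 3 overlapped between the groups, with edgeR adjusted p of 0.387, 0.771 and 0.666. With the length offset the log2 fold changes were 0.04 for Psmb5, -0.05 for Psmb6 and -0.02 for Psmb7.

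In the cap, 13 of 17 genes had a log2 fold change above 0 and 4 below it, against 47.9% of all genes below 0; with the length offset 10 were above, and without AFMC replicate 1 there were 7. The values ran from -0.09 (Psmc6) to 0.20 (Psmd13). The median was 0.06 for the 6 ATPases, 0.07 for the base subunits Psmd1, Psmd2 and Psmd4, and 0.03 for the 8 lid subunits. Psmd13, a lid subunit, measured 75.1, 79.2 and 75.8 CPM in the Hollow libraries and 92.8, 82.4 and 88.3 CPM in AFMC. The groups did not overlap, at a log2 fold change of 0.20 ± 0.07 (edgeR adjusted p = 0.170). Psmc5, an ATPase, measured 64.2, 70.8 and 67.1 CPM in the Hollow libraries and 78.6, 70.4 and 72.3 CPM in AFMC, which overlapped (0.13 ± 0.07; edgeR adjusted p = 0.342).

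The remaining members pointed in both directions. Psme4, a single-chain activator of the core, measured 205, 214 and 234 CPM in the Hollow libraries and 180, 191 and 204 CPM in AFMC, with no overlap, at a log2 fold change of -0.18 ± 0.08 (edgeR adjusted p = 0.236). It has the longest gene model among the members, 7466 bases, and with the length offset the value was -0.04. Psmf1, an inhibitor of the proteasome in vitro, measured 22.7, 23.5 and 22.5 CPM in the Hollow libraries and 23.8, 24.5 and 27.8 CPM in AFMC, with no overlap (0.15 ± 0.08; edgeR adjusted p = 0.350; 0.06 with the length offset). Pomp, the chaperone that matures the core, measured 56.7, 68.1 and 74.5 CPM in the Hollow libraries and 88.5, 67.3 and 76.1 CPM in AFMC, which overlapped (0.22 ± 0.12; edgeR adjusted p = 0.358). In all, the groups did not overlap for 3 members that were higher in AFMC (Psmb3, Psmd13 and Psmf1), against 10.2% of all genes, and for 1 that was lower (Psme4), against 12.3%. Counts of this size are near or under what the shares of all genes would give among 39 genes.

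These counts rested on single libraries. The 5 members higher at an unadjusted p under 0.05 became 15 without AFMC replicate 2, 3 without AFMC replicate 1, 2 without AFMC replicate 3 and 1 without Hollow replicate 1, and the immunoproteasome median of 0.36 became 0.66 without AFMC replicate 2 and 0.18 without replicate 3 of that group. The core median of 0.13 became 0.19 without AFMC replicate 2, and the cap median of 0.04 became -0.01 without AFMC replicate 1 and 0.09 with AFMC replicate 2 left out. Without AFMC replicate 2, 1 member, Psmb3, passed in edgeR (adjusted p = 0.0376), among 894 of 15897 tested genes that passed in that run. The shares of all genes at an unadjusted p under 0.05 were not counted in the runs that left out a library.

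**Figure D3:**
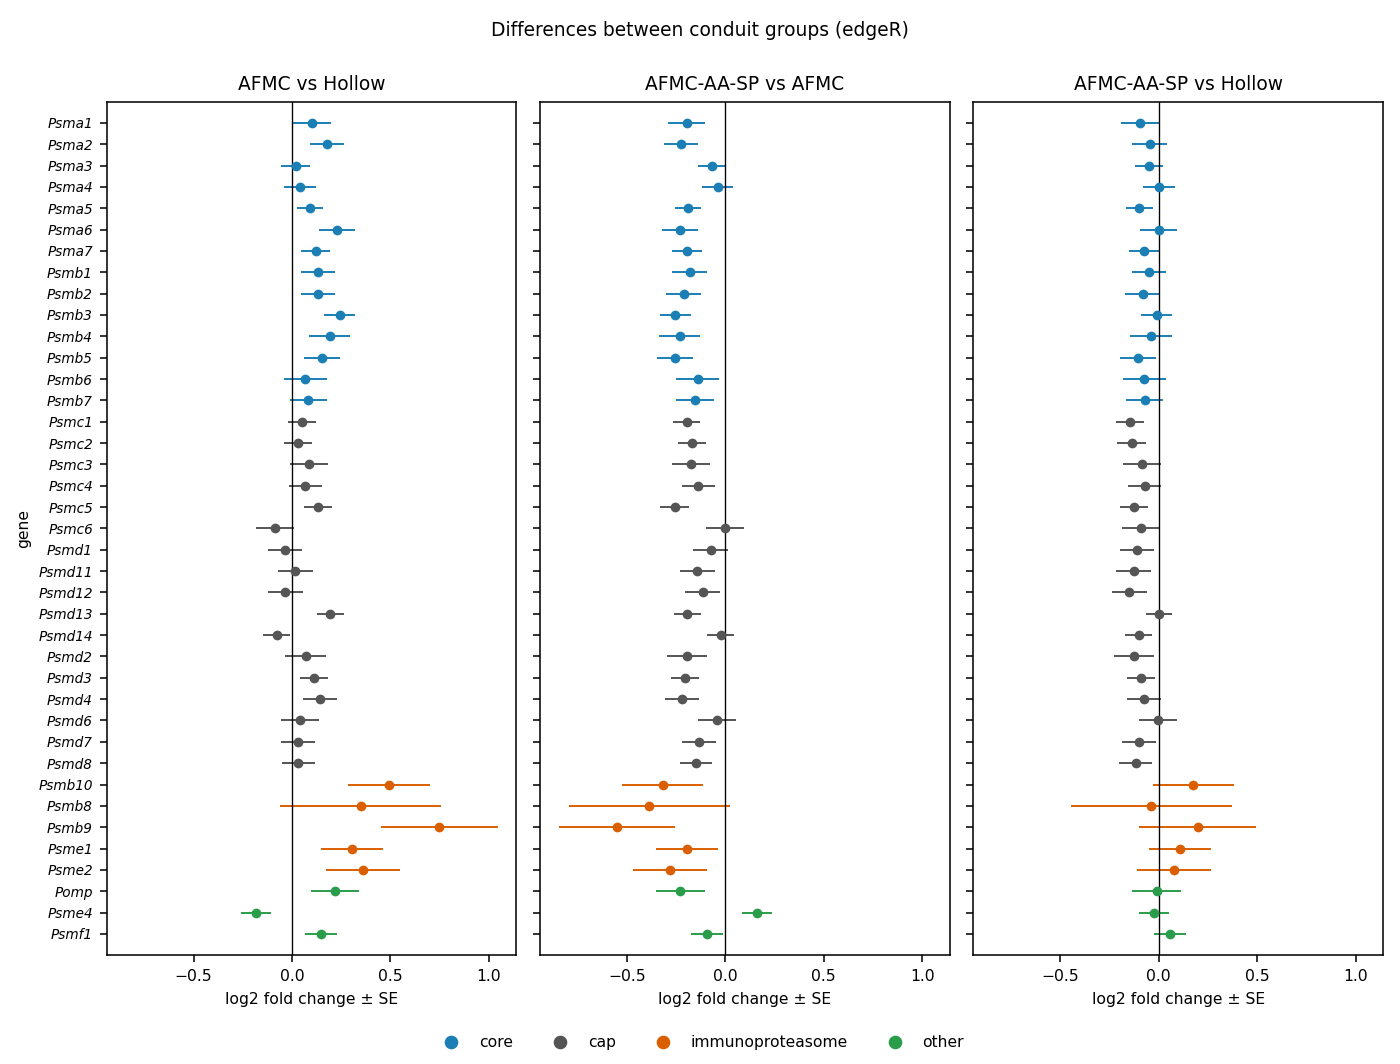
Log2 fold change ± SE from edgeR (horizontal axis) of each tested proteasome gene (vertical axis) in the 3 comparisons, coloured by class. Core and cap genes lie within 0.26 of 0 in every panel, and the immunoproteasome genes have wider errors and reach 0.75 in the first panel and -0.55 in the second (both Psmb9).

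AFMC-AA-SP against AFMC addresses the added effect of spermidine and ascorbic acid. All 14 core, all 17 cap and all 5 immunoproteasome genes had a log2 fold change below 0, as did 52% of all tested genes. Of the 39 members, 1 (Psme4) was above 0, against 48% of all genes. The median was -0.20 for the core, -0.15 for the cap and -0.32 for the immunoproteasome genes, against -0.01 for all tested genes. With the length offset these medians were -0.12, -0.11 and -0.30, against -0.02 for all tested genes, and 13 core and 15 cap genes were below 0. Without AFMC replicate 1, 14 of 17 cap genes were below 0, and without AFMC replicate 3, 3 of 5 immunoproteasome genes were. By edgeR 0 members and 0% of all genes were called in either direction, with a smallest adjusted p of 0.157 among members (Psmc5). DESeq2 called 1 member lower, Psmc5 (adjusted p = 0.0479), against 0.817% of all genes called lower, and 0 higher, against 2.98%. This comparison uses the same AFMC libraries as the one against Hollow.

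At an unadjusted edgeR p under 0.05, 13 of 39 members were lower in AFMC-AA-SP, against 7.21% of all genes, and 0 were higher, against 10.1%. They were 7 core genes (Psma2, Psma5, Psma6, Psma7, Psmb2, Psmb3 and Psmb5) and 6 cap genes (Psmc1, Psmc2, Psmc5, Psmd3, Psmd4 and Psmd13). The groups did not overlap for 12 members that were lower, against 10.3% of all genes, and for 1 that was higher (Psme4), against 12.5%. For lower values both shares were above those of all genes, and the difference in share was not tested. The count of 13 was 6 with an offset for gene length, 2 without AFMC replicate 1, 25 without AFMC replicate 2, 7 without AFMC replicate 3, 4 without AFMC-AA-SP replicate 1 and 5 without AFMC-AA-SP replicate 2. The shares of all genes in these runs were not counted. Without AFMC replicate 2, 1 member, Psmb3, was called by edgeR (adjusted p = 0.0411), among 579 of 15897 tested genes called in that run.

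Psmc5 measured 78.6, 70.4 and 72.3 CPM in AFMC and 59.9, 60.7 and 64.3 CPM in AFMC-AA-SP. Every AFMC-AA-SP library was below every AFMC library, at a log2 fold change of -0.26 ± 0.07. The deposited span of Psmc5 is 4.28 times that of RefSeq, so that reads of neighbouring genes may be included. Among the other members this ratio was largest for Psmd6 (10.3), Psmb10 (2.57), Psmc3 (2.14) and Psmb1 (2.07). Psmd13 measured 92.8, 82.4 and 88.3 CPM in AFMC and 76.1, 75.1 and 79.1 CPM in AFMC-AA-SP, again without overlap (-0.19 ± 0.07; edgeR adjusted p = 0.217).

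Psmb3 measured 65.2, 68.6 and 68.7 CPM in AFMC-AA-SP, below its 3 AFMC libraries, at a log2 fold change of -0.25 ± 0.08 (edgeR adjusted p = 0.182). The alpha subunit Psma5 measured 72.8, 64.8 and 68.0 CPM in AFMC and 60.7, 60.8 and 58.9 CPM in AFMC-AA-SP. Its groups did not overlap (-0.19 ± 0.07; edgeR adjusted p = 0.224; -0.11 with the length offset). Psmb5, at 51.8, 58.8 and 59.0 CPM in AFMC-AA-SP, was below every AFMC library at -0.26 ± 0.09 (edgeR adjusted p = 0.224). Psmb6, at 46.1, 47.8 and 53.2 CPM in the loaded conduit, and Psmb7, at 74.0, 74.3 and 80.4 CPM, overlapped with AFMC, at -0.14 ± 0.11 and -0.16 ± 0.10. With the length offset the values were -0.15 for Psmb5, -0.02 for Psmb6 and -0.06 for Psmb7.

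The immunoproteasome genes had a larger median difference here than the core but wider errors, and none reached an unadjusted p under 0.05. The log2 fold changes were -0.39 ± 0.41 for Psmb8, -0.55 ± 0.30 for Psmb9, -0.32 ± 0.21 for Psmb10, -0.19 ± 0.16 for Psme1 and -0.28 ± 0.19 for Psme2 (edgeR adjusted p = 0.654, 0.369, 0.449, 0.545 and 0.465). Groups overlapped for all 5. Without AFMC replicate 3 their median of -0.32 was -0.06 and Psmb8 stood at 0.06, and without AFMC-AA-SP replicate 1 the median was -0.49. The cap median of -0.15 was -0.08 without AFMC replicate 1.

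Psme4 measured 212, 212 and 218 CPM in AFMC-AA-SP, above every AFMC library, at a log2 fold change of 0.16 ± 0.08 (edgeR adjusted p = 0.323), and at 0.01 with the length offset. Pomp, at 62.2, 67.6 and 67.9 CPM, and Psmf1, at 24.3, 23.0 and 24.1 CPM, overlapped with AFMC, at -0.23 ± 0.12 and -0.09 ± 0.08 (-0.01 for Psmf1 with the length offset). Psme3, a nuclear activator related to Psme1 that the pathway annotation does not list here, measured 164, 194 and 204 CPM in AFMC and 200, 207 and 234 CPM in AFMC-AA-SP. The groups overlapped (0.19 ± 0.11; edgeR adjusted p = 0.381), and the deposited row of Psme3 also carries glucose-6-phosphatase annotation.

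Other genes of the pathway were compared in the same way. Of 13 genes for ubiquitin, its activation and its shuttles, 12 were below 0 (median -0.10), against 52% of all genes, 0 passed in edgeR or DESeq2, and 4 were lower at an unadjusted edgeR p under 0.05, against 7.21% of all genes. Ubb, a polyubiquitin gene, measured 550, 535 and 559 CPM in AFMC and 467, 454 and 503 CPM in AFMC-AA-SP, without overlap (-0.21 ± 0.08; edgeR adjusted p = 0.229). Of 13 assembly chaperones and cap cofactors, 6 were below 0 (median 0.01; -0.02, with 8 below 0, with the length offset) and 0 passed in edgeR or DESeq2. Adrm1, a ubiquitin receptor of the cap, measured 84.6, 72.7 and 73.6 CPM in AFMC and 62.7, 61.7 and 66.1 CPM in AFMC-AA-SP, without overlap (-0.28 ± 0.08; edgeR adjusted p = 0.172).

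Of 10 genes for the transcriptional control of the proteasome, 9 were above 0 in AFMC against Hollow (median 0.07), against 52.1% of all genes. In AFMC-AA-SP against AFMC, 9 were below 0 (median -0.07), against 52% of all genes. In either comparison 0 passed in edgeR or DESeq2. At an unadjusted edgeR p under 0.05, 1 was higher in the first (Mafk), against 8.4% of all genes. In the second, 1 was lower (Mafg), against 7.21% of all genes. Without AFMC replicate 3, 7 were above 0 in the first and 6 below 0 in the second. Both comparisons use the same AFMC libraries. Mafk measured 4.14, 3.80 and 3.82 CPM in the Hollow libraries and 5.30, 5.95 and 4.62 CPM in AFMC, without overlap. Its log2 fold change was 0.43 ± 0.14 (edgeR adjusted p = 0.162). Mafg was lower in every AFMC-AA-SP library than in every AFMC library (-0.20 ± 0.08, edgeR adjusted p = 0.243). Nfe2l2 measured 108, 129 and 116 CPM in the Hollow libraries and 135, 122 and 192 CPM in AFMC, highest in AFMC replicate 3, and the groups overlapped (0.35 ± 0.16; edgeR adjusted p = 0.271).

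AFMC-AA-SP against Hollow sets the loaded conduit against the empty tube. The median log2 fold change was -0.06 for the core, -0.10 for the cap and 0.11 for the immunoproteasome genes, against 0.00 for all tested genes. Of the 39 members, 32 were below 0, against 49.8% of all genes, and 7 above, against 50.2%. By edgeR 0 members and 0% of all genes were called, every member had an adjusted p that rounds to 1, and 0 members had an unadjusted p under 0.05, against 1.69% of all genes higher and 1.55% lower. DESeq2 called 0 members, against 0.0447% of all genes higher and 0.00639% lower. AFMC-AA-SP was below Hollow without overlap for 6 members (Psma5, Psmc1, Psmc2, Psmd7, Psmd11 and Psmd12), against 4.96% of all genes, and above it for 0, against 5.05%.

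The ATPase Psmc1 measured 89.7, 95.8 and 89.4 CPM in the Hollow libraries and 79.6, 81.2 and 87.7 CPM in AFMC-AA-SP, at a log2 fold change of -0.15 ± 0.07 (edgeR adjusted p = 1). The ATPase Psmc2 measured 78.6, 87.9 and 83.0 CPM in the Hollow libraries and 74.7, 75.7 and 76.1 CPM in AFMC-AA-SP, at -0.14 ± 0.07. For Psma5 the value was -0.10 ± 0.07. None of the 3 reached an unadjusted p under 0.05. The immunoproteasome median was 0.01 without AFMC-AA-SP replicate 1 and 0.18 without Hollow replicate 2, and the core median was -0.01 without Hollow replicate 2 and -0.10 without Hollow replicate 1. The immunoproteasome genes overlapped between these groups, from -0.04 ± 0.41 (Psmb8) to 0.20 ± 0.30 (Psmb9). With 3 libraries per group, differences of the size of these SEs were not detectable for Psmb8 and Psmb9. In simulated counts for AFMC against Hollow, edgeR recovered 16% and DESeq2 20% of log2 changes of 0.5. The changed genes were drawn at random from expressed genes, and changes as small as those of the core and cap were not simulated. The lack of calls among core and cap genes does not show that their levels were equal.

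The exchange of constitutive for immunoproteasome subunits was described by ratios within each library. These do not depend on scaling between libraries, but the difference between libraries by gene length can enter them. The Psmb8 to Psmb5 ratio of FPKM was 0.775, 0.817 and 0.805 in the Hollow libraries, 0.943, 0.380 and 1.36 in the AFMC libraries and 1.15, 0.606 and 0.793 in AFMC-AA-SP. Hollow libraries lay close together, and both filled conduits spread to either side of them. The difference in mean log2 ratio was -0.02 ± 0.55 (SE) for AFMC against Hollow, 0.06 ± 0.61 for AFMC-AA-SP against AFMC and 0.04 ± 0.27 for AFMC-AA-SP against Hollow (exact permutation p = 1, 1 and 0.9, two-sided).

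The Psmb9 to Psmb6 ratio was 0.174, 0.199 and 0.226 in the Hollow libraries, 0.257, 0.225 and 0.480 in the AFMC libraries and 0.306, 0.230 and 0.198 in AFMC-AA-SP. AFMC was highest in replicate 3, and its replicate 2 fell just inside the Hollow range. The log2 difference was 0.61 ± 0.35 for AFMC against Hollow, -0.33 ± 0.38 for AFMC-AA-SP against AFMC and 0.28 ± 0.21 for AFMC-AA-SP against Hollow (exact permutation p = 0.2, 0.6 and 0.3). Without AFMC replicate 3 the first of these was 0.28.

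The Psmb10 to Psmb7 ratio was 0.177, 0.174 and 0.168 in the Hollow libraries, 0.189, 0.186 and 0.318 in the AFMC libraries and 0.257, 0.184 and 0.176 in AFMC-AA-SP. Every AFMC library was above every Hollow library, 2 of them by little. The log2 difference was 0.37 ± 0.25 for AFMC against Hollow, -0.14 ± 0.31 for AFMC-AA-SP against AFMC and 0.23 ± 0.17 for AFMC-AA-SP against Hollow (exact permutation p = 0.1, 0.5 and 0.2). Without AFMC replicate 3 the first of these was 0.12. With 3 libraries in each group the smallest p this test allows is 0.1, and after Benjamini-Hochberg adjustment over the 9 tests all were 0.6 or above. The level of each ratio also depends on the gene lengths, and for Psmb10 on reads of Ctrl. Lengths were 3044 bases for Psmb10 against 1171 for Psmb7, and 1958 for Psmb9 against 811 for Psmb6. Group differences in the ratios may therefore carry the length trend of the libraries, which was not tested.

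**Figure D4:**
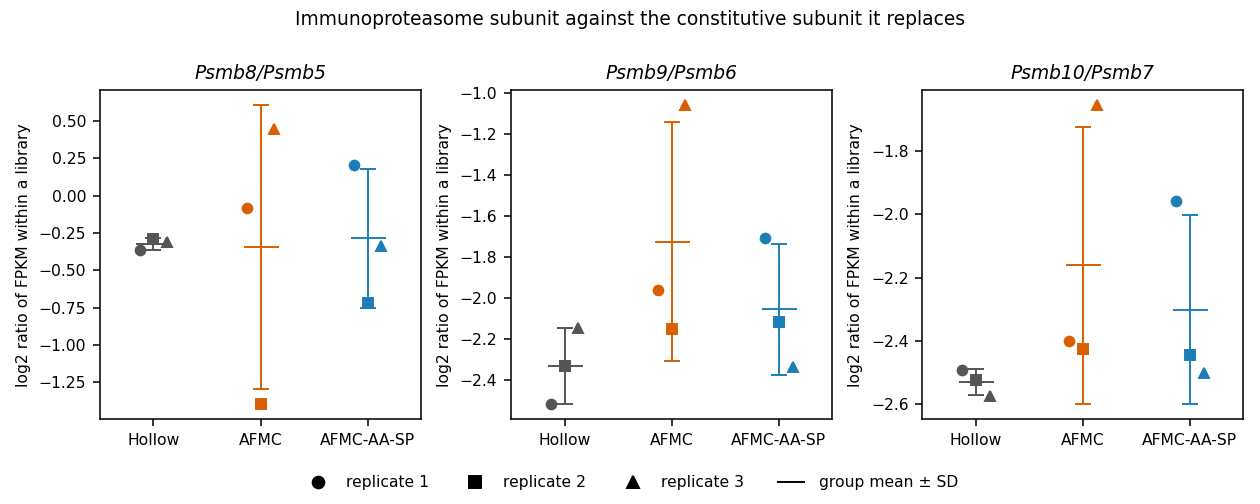
Log2 ratio of FPKM within a library (vertical axis) of Psmb8 to Psmb5, Psmb9 to Psmb6 and Psmb10 to Psmb7 in the 3 conduit groups (horizontal axis), with points for libraries, marker shape for the replicate number and bars for the group mean ± SD. Hollow points lie close together for Psmb8 and Psmb10, and AFMC replicate 3 is the highest library in each panel.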

How the data were processed

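Polyadenylated RNA was sequenced with a strand-keeping dUTP protocol and paired ends, per the labels' protocols. The deposited table gives whole-number counts per gene, not scaled, and FPKM, per the file headers. The authors' FPKM scale each count by a fixed gene length and the library's total. Which aligner, counter, annotation and build the authors used is not given in the sources used here. No molecular identifiers are described, so counts are reads.

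Counts were fitted in R 4.3.3 with edgeR 4.0.16 (filterByExpr, TMM, quasi-likelihood test, 1 term per conduit group, all 9 libraries), with Benjamini-Hochberg adjustment over all 15659 tested genes at 0.05, two-sided. SE is the log2 fold change divided by the square root of F. Within-library log2 FPKM ratios were compared by exact permutation. The scripts were tested on simulated data. Alternatives were DESeq2 1.42.0, RLE size factors, no filter, only the groups compared, a gene length offset (lowess span 0.3), a replicate block, and leaving out each library.

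Values are given for the catalytic pairs, Psme1 to Psme4, Psmf1 and Pomp. They are also given, per comparison, for the 2 core and 2 cap genes of smallest p with at least 5 CPM in the higher group. At most 2 genes of smallest p are named per other list and comparison. Members and lists were chosen with earlier results of these data known. Of 43 annotated pathway genes, 38 are named Psm; Psmb10 and Pomp were added by name. Adrm1, Sem1, Ifng and an unnamed gene of that pathway are not members. Psmb11 and a few listed genes were not analysed here. Precision is set by 3 libraries per group.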

Additional observations from a re-analysis of the deposited data

How the results depend on the processing

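Under alternatives that left out no single library, class medians and subunit ratios moved by less than the spread between replicates. For AFMC against Hollow, the gene length offset took the core median from 0.13 to 0.04 and the cap median from 0.04 to 0.01. It took the core median from -0.20 to -0.12 for AFMC-AA-SP against AFMC. Dropping 1 of 3 libraries cannot shift a mean log2 ratio beyond that spread, so those runs could not fail. The Psmb8 to Psmb5 difference for AFMC against Hollow fell to -0.42 with AFMC replicate 3 dropped. It rose to 0.51 with AFMC replicate 2 dropped. For AFMC-AA-SP against AFMC, dropping AFMC replicate 3 turned the Psmb10 to Psmb7 difference from -0.14 to 0.11. It also took the immunoproteasome median from -0.32 to -0.06. The cap median for AFMC against Hollow was -0.01 without AFMC replicate 1. Counts of members moved. For AFMC against Hollow, the 5 members higher at an unadjusted edgeR p under 0.05 were 3 with only the compared groups in the fit and 1 to 15 when leaving out a library; the 1 lower member was 0 with only the compared groups and 0 to 1 when leaving out a library. Members called ranged from 0 to 1 (Psmb3). For AFMC-AA-SP against AFMC, members called were 1 by DESeq2 (Psmc5) and 0 to 1 when leaving out a library; the 13 lower members at an unadjusted p under 0.05 were 6 with the gene length offset and 2 to 25 when leaving out a library, and the 0 higher members were 0 to 1. For AFMC-AA-SP against Hollow, the 0 lower members were 1 with the offset and 0 to 1 when leaving out a library. Over all genes, edgeR called 0 in each comparison and DESeq2 called 1028, 594 and 8; edgeR called 894 and 579 in the first and second comparison without AFMC replicate 2. The cause was not tested.

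Replicate numbers are shared by the groups, but same-numbered libraries did not deviate together (r from -0.0466 to 0.140), so they were not treated as pairs. With the replicate block, the counts at an unadjusted p under 0.05 were 3 higher for AFMC against Hollow and 8 lower for AFMC-AA-SP against AFMC. With block and length offset they were 2 higher and 0 lower, and 3 lower.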
